A study of Mus musculus with 35 samples.

Results

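The interferon-inducible GTPases described here are 10 mouse genes from 2 families of immune GTPases. The guanylate-binding proteins are represented by Gbp2, Gbp3, Gbp5 and Gbp7, and the immunity-related GTPases by Irgm1, Irgm2, Igtp, Iigp1, Ifi47 and Tgtp1. The genes were taken as the Ensembl identifiers of the deposited expression files that carry these symbols, and all 10 were found among 47069 gene identifiers. Bone marrow-derived macrophages (BMDMs), which are bone marrow cells differentiated into macrophages in L929-conditioned medium, were prepared from C57BL/6 mice. The mice were wild-type (WT) or labelled AMPKa1-/-, a deletion of the alpha-1 catalytic subunit of the energy-sensing kinase AMPK. The cultures received vehicle (DMSO), the glucocorticoid dexamethasone (Dex, 100 nM), the bacterial cell wall component lipopolysaccharide (LPS, 100 ng/ml), DAMPs (1 ug/ml, composition not given in the labels), LPS + Dex or DAMPs + Dex for 24 h before RNA isolation. Mixed-sex cohorts of 8 to 15 weeks supplied the cells. The 12 groups held 35 RNA-seq libraries, with 3 libraries each except WT LPS with 2 (replicates 2 and 3). Every culture was grown for 5 to 7 days, and all groups shared the strain and the culture medium.

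Interferon-inducible GTPases are cell-autonomous defence proteins. Interferons act on promoters through short response elements, the GAS element mainly for interferon gamma and the ISRE element mainly for type I interferon. The GTPases then load onto the membranes of vacuoles that hold intracellular bacteria or parasites, where they help to break these open, feed the inflammasome or mark them for autophagy. Macrophages stimulated through TLR4 make type I interferon themselves, so LPS induces these genes without added interferon. Glucocorticoids such as Dex are used to restrain this response.

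The genes lie in clusters. In the GENCODE M21 annotation of GRCm38, the 4 guanylate-binding protein genes occupy 144 kb of the plus strand of chromosome 3: Gbp5 at chr3:142493978-142522344, Gbp7 at chr3:142530342-142550149, Gbp3 at chr3:142560026-142573209 and Gbp2 at chr3:142620602-142638008. On chromosome 11, Irgm1 (chr11:48861968-48871683) and Tgtp1 (chr11:48985327-48994172) lie on the minus strand, and Ifi47 (chr11:49076587-49096974), Igtp (chr11:58199556-58207591) and Irgm2 (chr11:58199618-58222782) on the plus strand. Iigp1 lies on chromosome 18. All 10 are annotated as protein coding. The annotated spans of Igtp and Irgm2 overlap by 7974 bases on the same strand, and reads from that stretch could not be assigned to one gene with certainty. Gbp7 and Ifi47 each contain a processed pseudogene, and the annotated span of Olfr56 runs across both Ifi47 and Tgtp1, and Gm12185 overlaps Tgtp1 on its own strand, so their values carry the same uncertainty.

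RefSeq promoter windows on GRCm38.p6, from 250 bases before to 50 bases after the transcription start, were held for 9 of the 10 genes (10 start sites, since Gbp3 has 2). They were searched on both strands for the interferon-stimulated response element (ISRE), searched as a pair of GAAA half-sites with any 2 bases between them, and the gamma-activated site (GAS), searched as TTCNNNGAA. An ISRE match was present in 8 of the 9 genes, compared with 3.44% of all 32851 promoter windows, and a GAS match in 5 of the 9, compared with 8.3% of all windows. Both motifs were present in 5 genes (Gbp5, Gbp7, Irgm2, Igtp, Tgtp1), compared with 0.454% of all windows. Ifi47 had no match to these letters in its window, nor did the second start of Gbp3. The bases just after the start were found in no GENCODE transcript for Gbp7, Irgm2 and the second start of Gbp3. The windows of Gbp5, Irgm1, Irgm2 and Tgtp1 lie wholly inside the GENCODE spans given above, so the RefSeq starts differ from the ends of those spans. The sequences around the ISRE matches follow because they show how similar the response elements of these genes are. They are given 5′ to 3′ on the strand of the gene, with the matched letters in capitals. In Gbp2, Gbp3, Gbp5 and Gbp7 the ISRE reads on the opposite strand, as a pair of TTTC half-sites, and in Gbp3 and Irgm1 a pair of overlapping ISRE matches runs together.

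Igtp (chr11:58199501-58199541, plus strand): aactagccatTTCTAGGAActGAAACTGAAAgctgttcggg
Irgm2 (chr11:58214892-58214932, plus strand): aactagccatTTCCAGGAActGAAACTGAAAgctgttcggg
Tgtp1 (chr11:48992304-48992344, minus strand): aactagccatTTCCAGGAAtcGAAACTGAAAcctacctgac
Irgm1 (chr11:48871425-48871460, minus strand): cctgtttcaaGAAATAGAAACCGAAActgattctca
Gbp2 (chr3:142620594-142620623, plus strand): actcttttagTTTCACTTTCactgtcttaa
Gbp3 (chr3:142559989-142560024, plus strand): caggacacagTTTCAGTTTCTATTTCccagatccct
Gbp5 (chr3:142496759-142496788, plus strand): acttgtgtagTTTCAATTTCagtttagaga
Gbp7 (chr3:142530239-142530302, plus strand): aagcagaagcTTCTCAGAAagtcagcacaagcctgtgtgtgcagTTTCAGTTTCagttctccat

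In Igtp, Irgm2 and Tgtp1 a GAS match precedes the ISRE match, with 11 bases from the first base of one to the first base of the other. The 41-base windows of Igtp and Irgm2 are identical at 40 positions, and those of Igtp and Tgtp1 at 31 positions. Gbp5 has its GAS matches outside the window printed above, at 245 and 52 bases before the start, and Gbp7 has a second GAS match just before its window, at 106 bases before the start. The ISRE and GAS matches did not overlap each other in any of these windows. The matches are descriptions of letters, and no binding was measured in these samples.

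**Figure D1:**
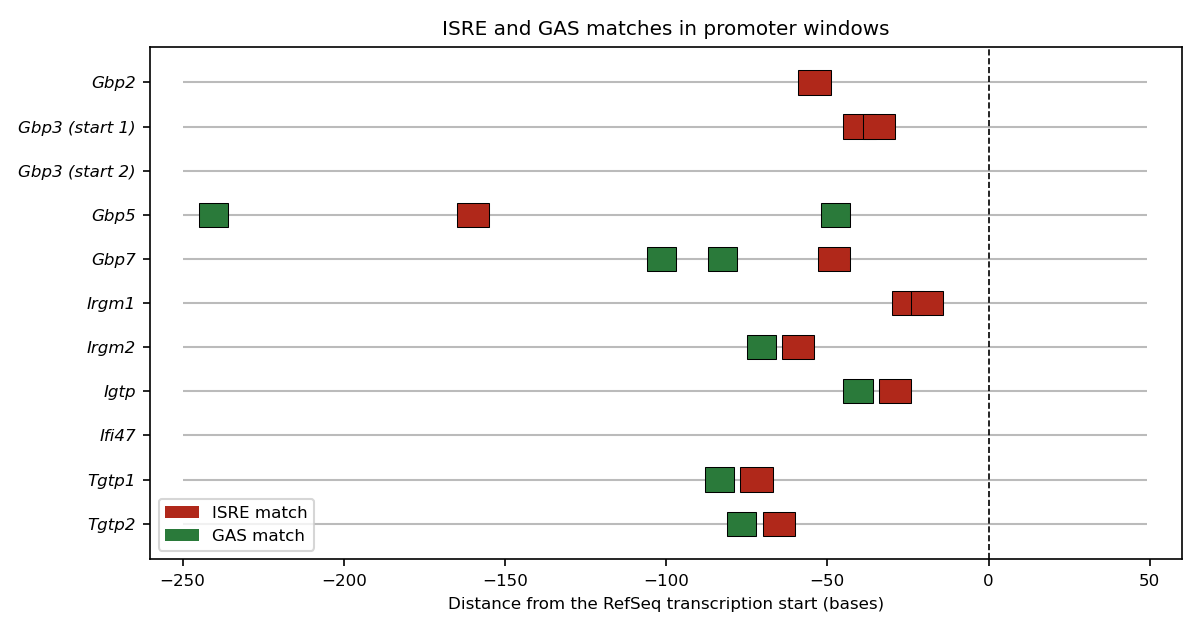
Position of ISRE (red) and GAS (green) matches in the promoter windows of the members and of the paralog Tgtp2; the horizontal axis is the distance in bases from the RefSeq transcription start and each grey line is one 300-base window. Irgm2, Igtp, Tgtp1 and Tgtp2 share the order GAS then ISRE, with 11 bases from first base to first base. Gbp7 has the same order with wider spacing, and Ifi47 and the second start of Gbp3 have no match.

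The deposited values are FPKM, a fragment density scaled to the length of the gene and the size of the library, so levels can be compared between genes per length. The libraries held 15837203 to 31955298 fragments as read from the step between low values, and 1 fragment on 1 kb of exon was worth 0.0313 to 0.0631 FPKM. Differences below are on the log2(FPKM + 1) scale, with their standard error (SE), and were tested with limma across 11354 genes with a mean of at least 1 FPKM, at a Benjamini-Hochberg adjusted p under 0.05. Of the 10 members, 9 passed this filter, also when the LPS libraries were left out of the mean. Tgtp1 did not. The labels do not say whether replicates came from separate mice. The study's methods state in general that cultures came from individual mice unless stated otherwise, without naming these libraries, and p-values measure the spread between these cultures.

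The labels were checked first. Prkaa1, the gene of AMPKa1, was 8.59 to 26.1 FPKM (median 15.3) in the 17 WT libraries and 9.05 to 24.0 FPKM (median 15.1) in the 18 libraries labelled AMPKa1-/-. By treatment, the 3 AMPKa1-/- vehicle libraries had 14.8, 16.5 and 15.4 FPKM of Prkaa1 and the WT vehicle libraries 15.9, 11.8 and 15.3 FPKM, and no treatment separated the genotypes in the test (adjusted p of 0.350 to 1). The level of the targeted gene therefore did not separate the genotypes. Which exons are deleted is not given in the sources used here, and reads from outside the deleted part check nothing, so the libraries are called by their label throughout. The treatments were checked on genes known to respond to them. Tsc22d3, a glucocorticoid-induced gene, was 709 ± 36.9 FPKM with Dex and 53.5 ± 1.60 with vehicle in WT cells (SD, n = 3 each), and 238 ± 25.0 with LPS + Dex (SD, n = 3) compared with 2.99 ± 0.721 with LPS (SD, n = 2). The cytokine gene Il6 was 489 and 524 FPKM in the WT LPS libraries and at most 0.116 FPKM in the WT DAMPs libraries. Tnf was 331 and 455 FPKM with LPS, compared with 6.71 to 10.3 FPKM with DAMPs and 7.75 to 12.5 FPKM with vehicle.

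The libraries had the markers of macrophages. All 8 macrophage markers were at or above 1 FPKM in every group, led by the lysozyme gene Lyz2 (12857 to 31379 FPKM as group means). Among markers of other cells that could contaminate a marrow culture, the neutrophil genes Ly6g, Mpo and Elane and the lymphocyte genes Cd3e, Ncr1 and Ms4a1 stayed at or near 0, while single genes of those lists moved. The summed neutrophil list (9 genes) was 511 to 1200 FPKM in WT LPS + Dex and 126 to 161 FPKM in WT LPS, compared with 1.67 to 28.6 FPKM in vehicle, most of it S100a8 with LPS + Dex and Camp with LPS. The summed NK cell list (5 genes) was 19.3 to 22.2 FPKM in WT LPS and 0.807 to 1.15 FPKM in vehicle, most of it the receptor gene Klrk1, with Ncr1 and Gzma at 0 in WT LPS. Cd4, the one T cell marker above 1 FPKM, was 16.5 FPKM in WT vehicle, 0.959 FPKM in WT LPS and 28.9 FPKM in WT DAMPs as group means. The B cell list (4 genes) summed to at most 3.19 FPKM and the dendritic cell list (5 genes) to at most 1.69 FPKM in any library. The fibroblast list (5 genes) summed to 1.28 to 21.9 FPKM in WT libraries and 1.09 to 10.7 FPKM in those labelled AMPKa1-/-. The part of other cells in the GTPase values was not tested.

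LPS raised the GTPases. In WT BMDMs, 9 of the 9 members tested rose, with a median of 3.46 on the log2 scale (range 1.80 to 6.32), while the median over all genes tested was -0.19. Higher calls made up 19.9% of all genes tested in this comparison. In the libraries labelled AMPKa1-/-, 9 of 9 rose as well, with a median of 3.65 (range 1.91 to 6.18) against -0.30 over all genes, and 20.2% of all genes tested were called higher. The members summed to 65.2, 74.8 and 82.1 FPKM in WT vehicle and to 1518 and 1570 FPKM in WT LPS. In a bulk library, more cells with the transcript and more transcript per cell cannot be told apart.

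On the log2(FPKM + 1) scale in WT, the 4 guanylate-binding proteins had the highest rises of the 9. Gbp5, which promotes assembly of the NLRP3 and AIM2 inflammasomes, was 1.51, 1.83 and 2.92 FPKM in WT vehicle and 231 and 253 FPKM in WT LPS. The LPS mean was 116-fold the vehicle mean on the FPKM scale, or 6.32 on the log2(FPKM + 1) scale (SE 0.36, adjusted p = 1.84e-14, limma). Gbp3, a vacuole-targeting family member, rose from 7.94, 7.17 and 9.41 FPKM to 566 and 592 FPKM, a log2 difference of 5.99 (SE 0.40), which made it the most abundant member in LPS. For 9 of the 10 members, all but Tgtp1, the WT LPS libraries lay wholly above the vehicle libraries, as they did for 26.5% of all genes tested.

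Gbp2, which helps to lyse pathogen vacuoles, was 7.07, 6.78 and 9.89 FPKM in WT vehicle and 227 and 266 FPKM in WT LPS, a log2 difference of 4.81 (SE 0.38). Gbp7, which takes part in the oxidative defence of the vacuole, went from 5.04, 3.77 and 6.75 FPKM to 133 and 87.0 FPKM, a log2 difference of 4.16 (SE 0.38). The makeup of the group shifted with this: guanylate-binding proteins were 31.5% ± 4.77 (SD, n = 3) of the members' summed FPKM in WT vehicle and 76.2% ± 0.0650 (SD, n = 2) in WT LPS, and Gbp3 alone was 37.5% of the sum with LPS.

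The regulatory IRGM proteins rose less. They guard the cell's own membranes and keep the effector GTPases inactive there. Irgm1, which is also required for autophagy and mitochondrial control, was 15.8, 16.3 and 18.4 FPKM in WT vehicle and 111 FPKM in both WT LPS libraries, a 6.60-fold ratio of means and a log2 difference of 2.65 (SE 0.27). Igtp, the protein also called Irgm3, rose from 8.42, 11.6 and 8.92 FPKM to 77.5 and 87.0 FPKM, a log2 difference of 2.98 (SE 0.30). Irgm2, which restrains non-canonical inflammasome activation, rose from 5.04, 5.34 and 5.39 FPKM to 22.3 and 19.3 FPKM, the smallest rise of the 9 (log2 difference 1.80, SE 0.25).

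The effector immunity-related GTPases include Iigp1, which polymerises on the vacuoles of Toxoplasma, and its relative Ifi47. Iigp1 was 0.628, 1.37 and 1.09 FPKM in WT vehicle and 16.7 and 26.6 FPKM in WT LPS, a log2 difference of 3.46 (SE 0.41). Ifi47 was one of the most abundant members in vehicle (13.7, 20.5 and 19.0 FPKM) and reached 133 and 128 FPKM with LPS, a log2 difference of 2.83 (SE 0.33). Tgtp1, named for its discovery in T cells, was 0.0902 to 0.341 FPKM in WT vehicle and 0.214 and 1.08 FPKM in WT LPS, so the groups overlapped. Its near-identical neighbour Tgtp2, which is not one of the 10, rose from a mean of 3.02 FPKM to 89.2 FPKM in the same groups (log2 difference 4.50, SE 0.46). Reads that fit both copies cannot be told apart, so the low Tgtp1 values are uncertain.

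**Figure D2:**
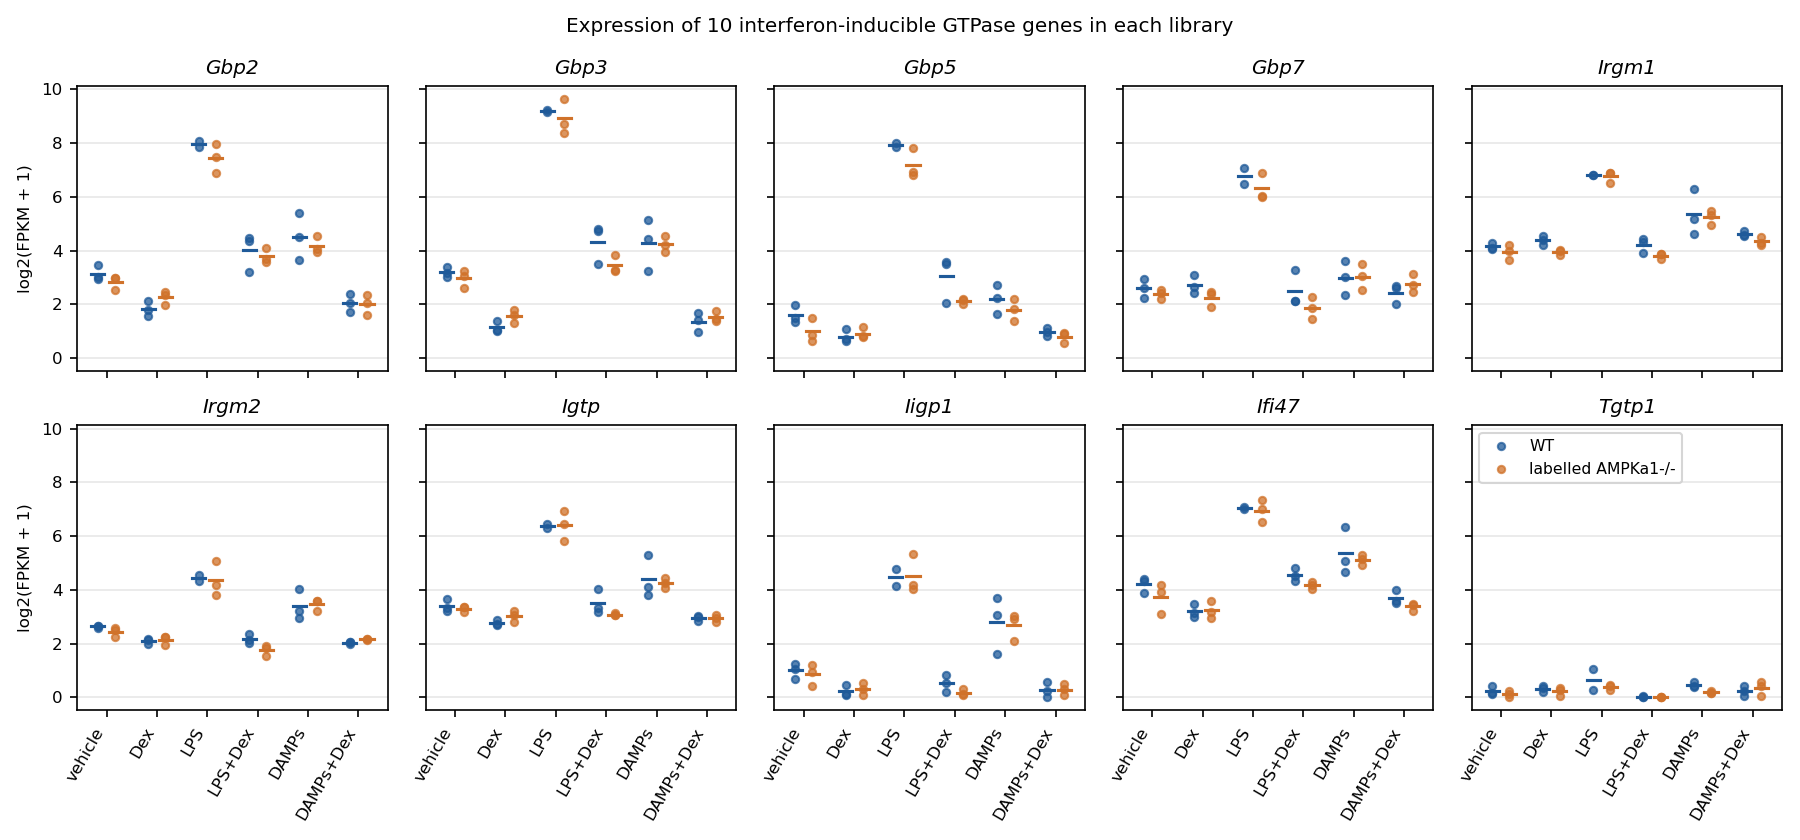
Level of each of the 10 members in each of the 35 libraries, as log2(FPKM + 1) on the vertical axis, by treatment; points are libraries (blue WT, orange labelled AMPKa1-/-) and bars are group means. The LPS means stand highest for every member, the LPS + Dex means lie near vehicle for most, with Gbp2, Gbp3 and Gbp5 above it in WT, and Tgtp1 stays at or below 1.08 FPKM.

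With Dex given alongside LPS, the GTPases were lower than with LPS alone at 24 h. In WT BMDMs, 9 of 9 members tested fell compared with LPS alone, by a median of 3.94 on the log2 scale (range -4.88 to -2.27), while 17.5% of all genes tested were called lower and the median over all genes was -0.03. In the libraries labelled AMPKa1-/-, 9 of 9 fell, with a median of -3.66 (range -5.47 to -2.59), compared with 18.4% of all genes called lower. For all 10 members the LPS + Dex libraries lay wholly below the LPS libraries in both genotypes, compared with 24.4% of all genes tested in WT and 22.4% in the libraries labelled AMPKa1-/-. These comparisons share the LPS libraries with those above.

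Gbp5 was 10.4, 3.15 and 11 FPKM in WT LPS + Dex, 3.37% of its mean with LPS alone (log2 difference -4.88, SE 0.36, adjusted p = 1.34e-11, limma). Gbp3 was 26.6, 10.2 and 25.4 FPKM, 3.58% of the LPS mean, and Gbp2 was 19.4, 8.09 and 21.4 FPKM, 6.61% of the LPS mean. Gbp7 was 8.78, 3.35 and 3.38 FPKM, 4.70% of the LPS mean. WT LPS + Dex replicate 2 was the lowest of the 3 for each of these 4 genes. Iigp1 was 0.785, 0.143 and 0.461 FPKM, 2.14% of its LPS mean. The shares were larger for Irgm1, at 16.1% (18.8, 14.2 and 20.7 FPKM), and Irgm2, at 16.9% (3.41, 3.04 and 4.09 FPKM). Igtp had 13.2% (9.13, 8.12 and 15.4 FPKM) and Ifi47 17.3% (21.7, 19.1 and 27.0 FPKM). With vehicle these genes already stood at 0.151, 0.253, 0.117 and 0.136 times their LPS means, in the same order, compared with 0.00862 for Gbp5. Tgtp1 was listed at 0 in all 3 AMPKa1-/- LPS + Dex libraries and in 2 of the 3 WT libraries.

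In libraries labelled AMPKa1-/- the values fell in the same way. Gbp3 went from 421, 332 and 796 FPKM with LPS to 8.34, 13.2 and 8.73 FPKM with LPS + Dex (log2 difference -5.47, SE 0.36), and Gbp5 from 119, 113 and 223 FPKM to 3.59, 3.47 and 3.03 FPKM (log2 difference -5.06, SE 0.32). Iigp1 went from 17.2, 15.3 and 39.1 FPKM to 0.0931, 0.233 and 0.0715 FPKM (log2 difference -4.34, SE 0.36). AMPKa1-/- LPS replicate 3 was the highest of its group for 9 of the members, and the summed members were 1860 FPKM in it compared with 1146 and 891 FPKM in the other two.

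One transcript took a large share of these libraries. Saa3, an acute-phase gene, took 16% to 24.0% of all FPKM in the WT LPS + Dex libraries, 7.12% and 7.20% in the WT LPS libraries and at most 0.0344% in WT vehicle. The summed FPKM of all genes differed between libraries as well, at 787160, 847753 and 939953 in WT LPS + Dex and 697175 to 739460 in WT vehicle, and the part of Saa3 in the members' values was not tested. With each library centred on its median gene, 9 of 9 members still fell, and over all settings tried the difference of Gbp3 lay between -5.08 and -4.43.

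Set against vehicle, some members were higher with LPS + Dex and others were at the vehicle level or lower. The median of the 9 was 0.12 in WT, while the median over all genes tested was -0.23. Gbp2 (0.87, SE 0.34), Gbp3 (1.14, SE 0.36) and Gbp5 (1.45, SE 0.32) stayed above vehicle, 3 of 9 members compared with 17.2% of all genes called higher, and no member was called lower, compared with 37.0% of all genes. Without WT LPS + Dex replicate 3 the count was 1. Gbp2 did not pass in 6 of 14 alternatives, Gbp3 in 1 and Gbp5 in 0. Irgm1 was 18.8, 14.2 and 20.7 FPKM with LPS + Dex and 15.8, 16.3 and 18.4 FPKM with vehicle, so the groups overlapped. Irgm2 was 3.41, 3.04 and 4.09 FPKM, all under its vehicle range of 5.04 to 5.39 FPKM, and did not pass (-0.48, SE 0.22). Iigp1 had 44.9% of its vehicle mean, with overlapping libraries (-0.48, SE 0.36). In the libraries labelled AMPKa1-/-, Gbp2 (0.96, SE 0.34) and Gbp5 (1.12, SE 0.32) were higher than vehicle, compared with 16.7% of all genes, and Irgm2 (-0.68, SE 0.22) was lower, compared with 40.8%. Gbp2 did not pass in 2 of 14 alternatives in that genotype. Irgm2 was 2.75, 2.61 and 1.94 FPKM there and 4.97, 4.71 and 3.81 FPKM in vehicle. The Irgm2 call was lost with median centring (-0.39), with quantile normalization (-0.26) and without AMPKa1-/- LPS + Dex replicate 3 (-0.57). Iigp1 was 0.0931, 0.233 and 0.0715 FPKM there, 15.3% of its vehicle mean and below all 3 vehicle libraries, and did not pass (-0.69, SE 0.36).

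The comparison of LPS + Dex with Dex alone was added after the values had been seen. It asked whether LPS still acted on these genes when Dex was present. In WT, 5 of 9 members were higher, compared with 20.2% of all genes: Gbp3 by 3.18 (SE 0.36), Gbp5 by 2.25 (SE 0.32), Gbp2 by 2.17 (SE 0.34), Ifi47 by 1.34 (SE 0.29) and Igtp by 0.75 (SE 0.26). Without WT LPS + Dex replicate 3 the difference of Igtp was 0.49 and did not pass. Gbp7, Irgm1, Irgm2 and Iigp1 did not pass, with differences of -0.20 to 0.29. In the libraries labelled AMPKa1-/-, Gbp2, Gbp3, Gbp5 and Ifi47 were higher (0.93 to 1.88), 4 of 9, compared with 18.8% of all genes.

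With Dex alone, 3 of 9 members passed in WT, all of them lower, and the Dex libraries lay wholly below the vehicle libraries for 7 of the 10 members. All genes tested gave 22.1% for the latter. Gbp3 fell by 2.04 (SE 0.36, adjusted p = 7.07e-05, limma), Gbp2 by 1.31 (SE 0.34) and Ifi47 by 1.00 (SE 0.29), compared with 14.9% of all genes tested called lower. The count of 3 was 6 with a pseudocount of 0.1, 5 with median centring and 6 with only the groups compared. Gbp3 was 1.60, 1.02 and 1.07 FPKM with Dex and 7.17 to 9.41 FPKM with vehicle. The other 4 members without overlap did not pass. Iigp1 was 0.373, 0.0712 and 0.105 FPKM, 17.7% of its vehicle mean (-0.77, SE 0.36), and Gbp5 was 1.12, 0.541 and 0.616 FPKM, 36.3% (-0.80, SE 0.32). The ratios of means were closer to vehicle for the regulators, 60.8% for Igtp (-0.62, SE 0.26) and 62.4% for Irgm2 (-0.55, SE 0.22). In the other direction, Irgm1 was 22.6, 20.3 and 17.4 FPKM with Dex and did not pass (0.24, SE 0.24), and Gbp7 was 7.45, 5.21 and 4.38 FPKM (0.11, SE 0.34). In the libraries labelled AMPKa1-/-, Gbp3 alone fell (-1.42, SE 0.36), 1 of 9, compared with 16.0% of all genes tested. Its values were 2.02, 2.44 and 1.48 FPKM with Dex and 8.46, 7.40 and 5.16 FPKM with vehicle. Gbp2 (62.4% of its vehicle mean) and Irgm2 (77.0%) also lay wholly below vehicle in that genotype and did not pass. With Gbp3 this made 3 of the 10 members, close to the 26.1% of all genes tested that lay wholly below vehicle there. The other members overlapped vehicle there.

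The Dex effect was larger with LPS than with vehicle. The difference of the 2 effects was negative and passed for 9 of 9 members in WT (median -2.81, range -4.36 to -1.49), compared with 17.1% of all genes, and for 9 of 9 in the libraries labelled AMPKa1-/- (median -3.10, range -4.97 to -2.28), compared with 12.8%. It was largest for Gbp7 in WT (-4.36, SE 0.50), a gene that Dex alone left at 0.11. On the log2(FPKM + 1) scale, a low vehicle level limits how far Dex alone can lower a gene. This holds for Iigp1 (0.628 to 1.37 FPKM in WT vehicle) and Gbp5 (1.51 to 2.92 FPKM). For such members a negative difference follows in part from the low vehicle level. The WT difference of Ifi47 did not pass in 1 of 19 alternatives. These comparisons share the vehicle, Dex, LPS and LPS + Dex libraries with those above.

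**Figure D3:**
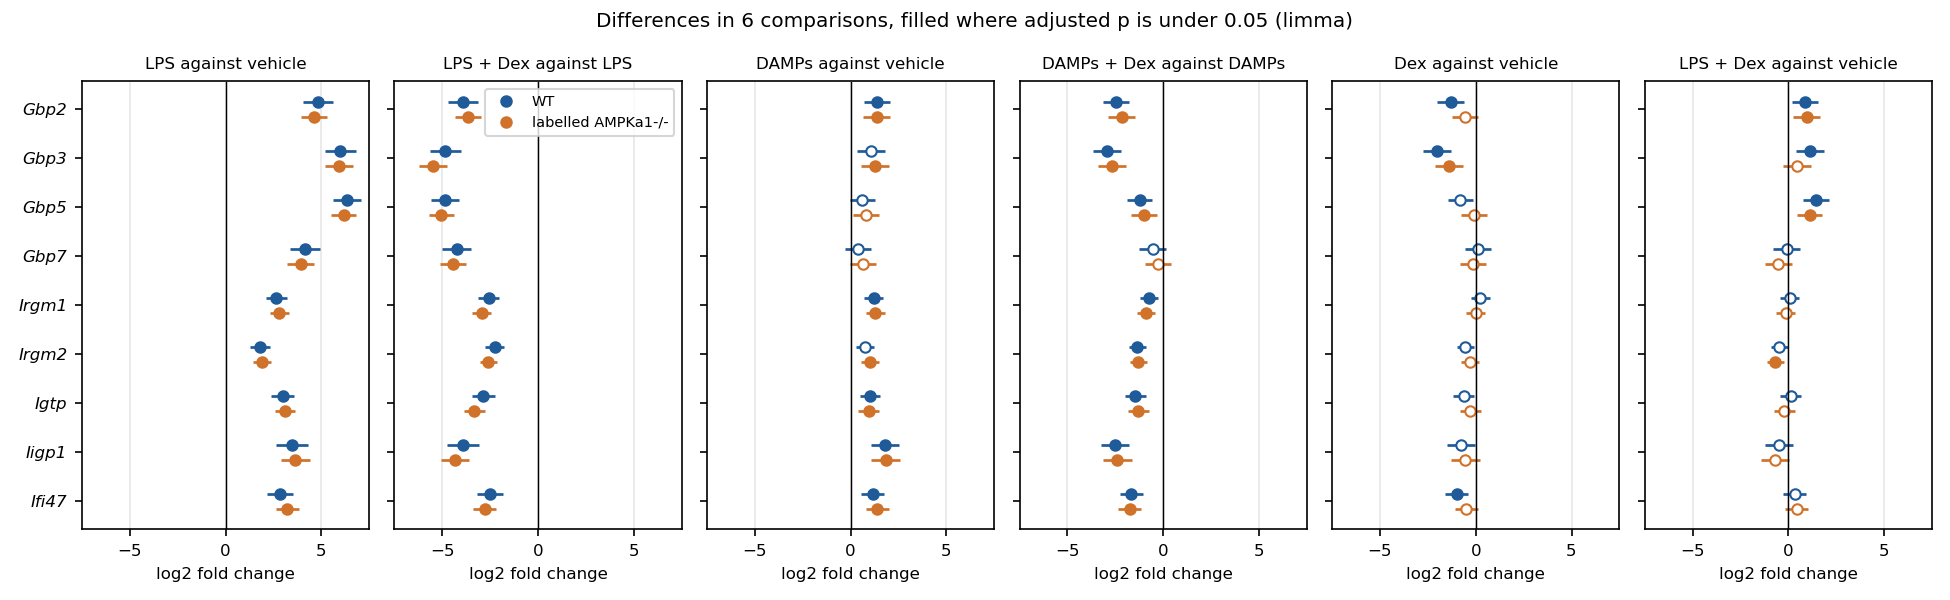
Log2 fold change (horizontal axis, log2(FPKM + 1) scale) of the 9 members tested in 6 comparisons, with 95% intervals; blue is WT, orange is labelled AMPKa1-/-, and filled points have an adjusted p under 0.05. All 9 are right of 0 for LPS against vehicle and left of 0 for LPS + Dex against LPS in both genotypes, while Gbp7 is open in the DAMPs and Dex comparisons.

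DAMPs raised a smaller part of the group and by less. In WT, 5 of 9 members rose, with a median over the 9 of 1.08, compared with 1.22% of all genes tested called higher and a median of -0.03 over all genes. Iigp1 rose by 1.80 (SE 0.36, adjusted p = 0.0076, limma), Gbp2 by 1.38 (SE 0.34), Irgm1 by 1.21 (SE 0.24), Ifi47 by 1.17 (SE 0.29) and Igtp by 1.01 (SE 0.26). The calls were lost without 1 library, though the differences of all 9 members tested kept their sign. WT DAMPs replicate 3 had a members' sum of 313 FPKM, compared with 158 and 96.6 FPKM in the other two, and without it no member passed, with differences of 1.34 for Iigp1, 0.93 for Gbp2, 0.75 for Irgm1, 0.67 for Ifi47 and 0.55 for Igtp. The NK cell list moved with it: its sum was 1.15 to 16.8 FPKM in WT DAMPs, nearly all of it Klrk1 with Ncr1, Prf1 and Gzma at 0, and its part in the result was not tested. Leaving out WT vehicle replicate 1 or 3 lowered the count to 2.

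Iigp1 was 7.43, 2.07 and 12.1 FPKM in WT DAMPs, all above the vehicle libraries (0.628 to 1.37 FPKM). Irgm1 was 35.3, 23.5 and 77.8 FPKM in WT DAMPs and at most 18.4 FPKM in vehicle. Gbp3 was 20.6, 8.40 and 34.1 FPKM and overlapped its vehicle range, and it did not pass (1.08, SE 0.36, adjusted p = 0.147, limma), nor did Gbp5 (0.60), Gbp7 (0.39) or Irgm2 (0.75).

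In the libraries labelled AMPKa1-/-, 7 of 9 members rose with DAMPs, compared with 1.89% of all genes tested. Their values lay closer together: Iigp1 was 3.31, 6.62 and 7.24 FPKM, Irgm1 30.0, 38.6 and 43.1 FPKM, and Irgm2 8.35, 11 and 10.9 FPKM. The differences of those that passed were 0.94 (Igtp) to 1.83 (Iigp1), and Gbp5 (0.80) and Gbp7 (0.64) did not pass. Without AMPKa1-/- DAMPs replicate 3 the count was 4, and without AMPKa1-/- vehicle replicate 3 it was 3. The calls of Igtp and Gbp3 were the least stable. Igtp did not pass in 9 of 14 alternatives, among them no filter, median centring and no moderation of variances, and Gbp3 did not in 8 of 14, among them a pseudocount of 0.1, no filter and no moderation.

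LPS exceeded DAMPs for 9 of 9 members in both genotypes, by a median of 1.97 in WT (20.7% of all genes called higher) and 2.16 in the libraries labelled AMPKa1-/- (22.0% of all genes). The gap was 5.72 for Gbp5 and 4.91 for Gbp3 in WT, compared with 1.67 for Iigp1, 1.44 for Irgm1 and 1.04 for Irgm2. Without AMPKa1-/- LPS replicate 3, the gap of Irgm2 in that genotype was 0.54 in place of 0.90 and still passed. Without WT DAMPs replicate 2, that of Iigp1 was 1.08 in place of 1.67 and still passed.

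Dex given with DAMPs lowered 8 of 9 members in both genotypes, compared with 12.6% of all genes called lower in WT and 12.2% in the libraries labelled AMPKa1-/-. In WT, Gbp3 went from 20.6, 8.40 and 34.1 FPKM to 2.21, 0.949 and 1.66 FPKM (log2 difference -2.91, SE 0.36), and Iigp1 to 0.486, 0.0208 and 0.186 FPKM, 3.21% of its DAMPs mean (-2.52, SE 0.36). Irgm1 kept 51.9% of its DAMPs mean (-0.75, SE 0.24), with 25.5, 22.9 and 22.4 FPKM. Its difference was -0.28 without WT DAMPs replicate 3, which did not pass, and -1.12 without replicate 2. Irgm1 did not pass in WT in 5 of 14 alternatives. The call of Gbp5 in the libraries labelled AMPKa1-/- was lost in 4 of 14 alternatives. Gbp7 did not pass in WT (-0.56, SE 0.34) or in the libraries labelled AMPKa1-/- (-0.26, SE 0.34). Against Dex alone, a comparison added after the values had been seen, no member passed in limma with DAMPs + Dex (0 in WT, where 0.352% of all genes were called higher, and 0 in the libraries labelled AMPKa1-/-, where 0.203% were), and 0 of the 9 had an unadjusted p under 0.05 in either genotype. The differences were -0.28 to 0.50 in WT.

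Between the genotypes, no member passed the test in any of the 6 treatments. The share of all genes called was 0.432% with vehicle, 26.5% with Dex, 0.766% with LPS, 0.669% with LPS + Dex, 0.731% with DAMPs and 1.06% with DAMPs + Dex. With LPS + Dex the 9 members all lay lower in the libraries labelled AMPKa1-/- (median -0.41, range -0.92 to -0.22), and 2 of them had an unadjusted p under 0.05. Gbp5 was 10.4, 3.15 and 11 FPKM in WT and 3.59, 3.47 and 3.03 FPKM in AMPKa1-/- LPS + Dex (difference -0.92, 95% interval -1.58 to -0.26, adjusted p = 0.281, limma). WT replicate 2 lay within the AMPKa1-/- range of Gbp5, and without that library 1 member passed. With vehicle the 9 also all lay lower (median -0.21), with 0 at an unadjusted p under 0.05, and with Dex 7 of 9 lay higher (median 0.09), also with 0. With LPS the median was -0.09, with 1 at an unadjusted p under 0.05. The 95% intervals over all members and treatments ran from -1.62 to 1.14, and a p that misses the threshold does not show that the genotypes were alike.

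The size of the treatment effects was compared between the genotypes as well, and no member passed. The difference between genotypes in the LPS effect was -0.24 to 0.38 over the members, in the DAMPs effect -0.06 to 0.26, in the Dex effect -0.25 to 0.74, in the Dex effect on LPS -0.62 to 0.28 and in the Dex effect on DAMPs -0.16 to 0.30. In limma, 0 of the 9 members passed for each of these 5 differences, 0 had an unadjusted p under 0.05, and 0 of all genes passed. Over all genes, 514, 66, 2441, 311 and 234 had an unadjusted p under 0.05, in the same order.

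**Figure D4:**
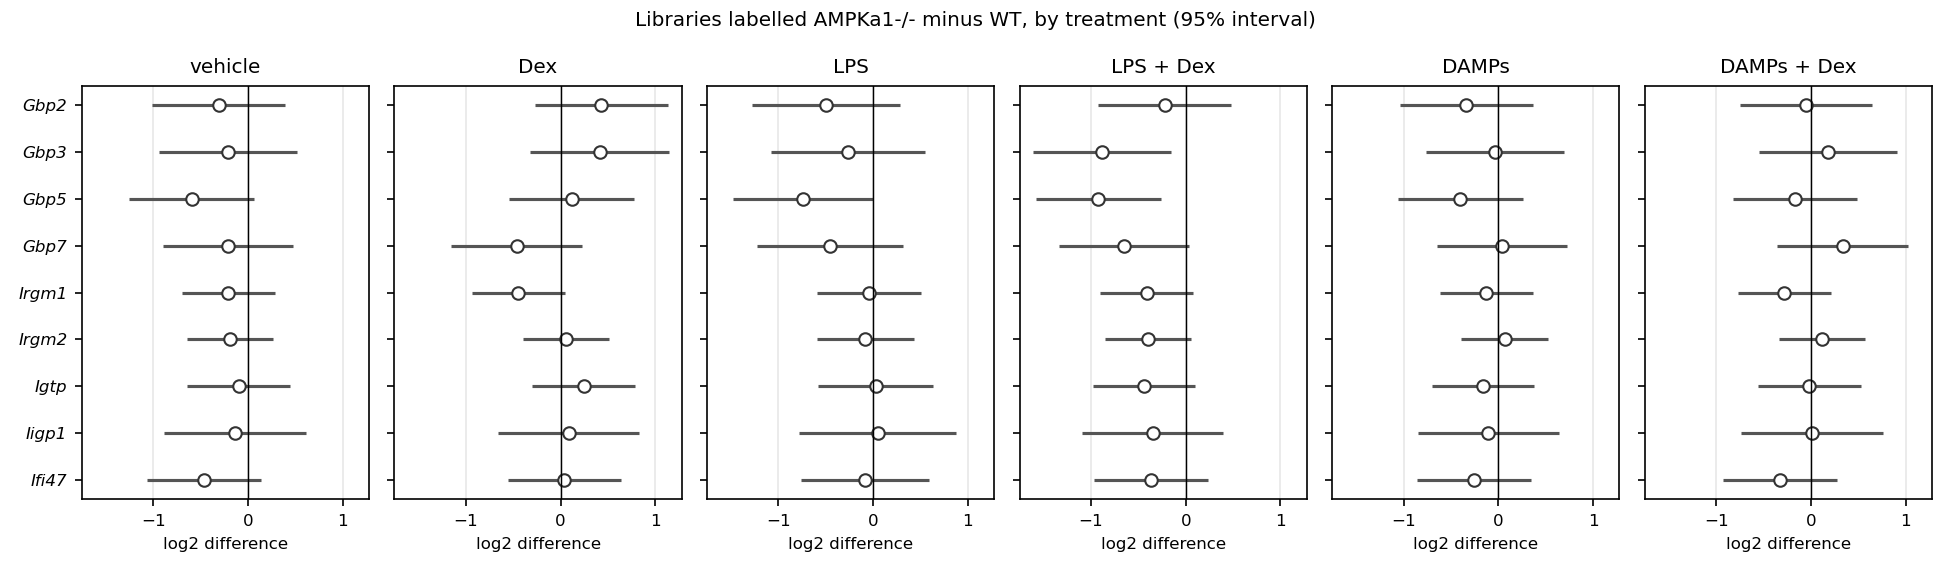
Difference between libraries labelled AMPKa1-/- and WT (horizontal axis, log2(FPKM + 1) scale) for each of the 9 members tested, in each treatment, with 95% intervals. The points lie between -0.92 and 0.43; the 9 LPS + Dex points and the 9 vehicle points all lie left of 0, and none of the points has an adjusted p under 0.05.

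The order of the treatments was alike across most members. In each genotype LPS gave the highest mean of all 10. DAMPs gave the second highest mean except for Gbp5, where LPS + Dex came second, and for Tgtp1 in the libraries labelled AMPKa1-/-, where DAMPs + Dex did. For Gbp2, Gbp3 and Ifi47, the means with vehicle, LPS + Dex and DAMPs stood above Dex and DAMPs + Dex. In WT the Dex means of Irgm1 and Gbp7 were not below vehicle. Irgm1 was 17.4 to 22.6 FPKM with Dex, 22.4 to 25.5 FPKM with DAMPs + Dex and 15.8 to 18.4 FPKM with vehicle. Its Dex libraries overlapped vehicle, and DAMPs + Dex was not tested against vehicle. The abundance order between members changed with treatment. Ifi47 and Irgm1 led in vehicle, and Gbp3, Gbp2 and Gbp5 led in LPS.

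The genes whose 12 group means followed the mean of the members most closely were Phf11b (Pearson r = 0.995), Parp9 (0.994), Trim30d (0.994), Trim30a (0.993) and H2-T22 (0.992), over 12 group means that share libraries and depth. Trim30a was 65.5 FPKM in WT vehicle, 469 FPKM in WT LPS, 66.6 FPKM in WT LPS + Dex and 129 FPKM in WT DAMPs as group means. Among the members, Igtp was the closest to that mean (0.998) and Gbp7 the farthest (0.952). These are descriptions over points that share libraries.

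Other interferon-inducible GTPases moved in much the same direction. A list of 22 relatives held 21 genes that could be matched, of which 15 were tested. Gbp4, Gbp6 and Gm4951 passed the filter on low values only through the LPS libraries. Of the other 12, 8 rose and 1 fell with LPS in WT, and 9 fell with LPS + Dex compared with LPS. Of all 11354 genes tested, 2258 were called higher and 4068 lower with LPS, and 1984 lower with LPS + Dex compared with LPS. Gbp4 had WT means of 0.135 FPKM with vehicle, 32.5 FPKM with LPS and 0.196 FPKM with LPS + Dex. The influenza resistance genes Mx1 (4.77, SE 0.43) and Mx2 (4.74, SE 0.40) rose alike, and with LPS + Dex Mx1 was 1.39 FPKM, lower than vehicle at 4.99 FPKM (-1.32, SE 0.38). With DAMPs, 9 of the 15 rose in WT, among them Tgtp2 (2.0, SE 0.41), compared with 138 of all 11354 genes tested. These 15 include Gbp4, Gbp6 and Gm4951, which passed the filter only through LPS. Without WT DAMPs replicate 3, 1 of the 14 then tested rose, compared with 18 of all 11363 genes. It was Gbp6 (0.79, SE 0.17), itself among the genes that passed the filter only through LPS. Tgtp2 did not pass in that setting (1.48, SE 0.41). The gene that fell with LPS, 9930111J21Rik2, had a WT mean of 30.3 FPKM with vehicle and 11 FPKM with LPS.

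Transcripts of the interferon ligands were low at 24 h, the one time measured. Interferon beta, Ifnb1, had a mean of 0.785 FPKM in WT LPS and 0.262 FPKM in AMPKa1-/- LPS, at most 0.0246 FPKM with DAMPs, and was listed at 0 in the other groups. Interferon gamma, Ifng, was 1.25 FPKM in WT LPS and 0.790 FPKM in AMPKa1-/- LPS. The alpha interferons were listed at 0 except Ifna4 at 0.0838 FPKM in WT LPS. Of 18 interferons and inducing cytokines, 6 passed the filter, Il12b only through the LPS libraries. Of the other 5, 4 rose with LPS in WT and 5 fell with LPS + Dex compared with LPS. The calls over all 11354 genes tested were 2258 higher with LPS and 1984 lower with LPS + Dex compared with LPS. Il12a, which encodes a subunit of IL-12, rose by 8.27 (SE 0.28) and Il27 by 4.87 (SE 0.39). None of the 6 passed with DAMPs in WT, where 138 of all 11354 genes tested were called higher and 90 lower.

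Among the 4 receptor chains, Ifngr1 moved in the opposite direction to the members. Ifngr1, the ligand-binding chain of the interferon gamma receptor, had a WT mean of 323 FPKM with vehicle, 1287 FPKM with Dex, 54.9 FPKM with LPS and 334 FPKM with LPS + Dex. It fell with LPS by 2.53 (SE 0.14) and was raised by Dex both alone (2.0, SE 0.13) and on top of LPS (2.56, SE 0.14). Its partner Ifngr2 rose with LPS (0.79, SE 0.10) and fell with Dex (-0.54, SE 0.09). The type I receptor chain Ifnar2 rose with LPS (0.44, SE 0.10), and Ifnar1 did not pass (0.16, SE 0.20). Both fell with Dex alone, Ifnar1 by 0.71 (SE 0.18) and Ifnar2 by 0.33 (SE 0.09). With LPS + Dex compared with LPS these 3 chains were lower, like the members, with differences of -0.74 for Ifnar1 (SE 0.20), -0.52 for Ifngr2 (SE 0.10) and -0.48 for Ifnar2 (SE 0.10).

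The transducers are kinases and transcription factors. Of 12, 6 rose and 2 fell with LPS in WT, and 8 fell and 1 rose with LPS + Dex compared with LPS. Over all genes tested, 19.9% were called higher and 35.8% lower with LPS, and 17.5% lower and 16.6% higher with LPS + Dex. Stat2 went from 12.6 FPKM to 74.7 FPKM with LPS and 12.2 FPKM with LPS + Dex. Irf7, the amplifier of type I interferon, went from 89.7 FPKM to 2025 FPKM with LPS, 98.8 FPKM with LPS + Dex and 810 FPKM with DAMPs, so that DAMPs raised it by 2.89 (SE 0.47). The 3 WT DAMPs libraries had 478, 368 and 1586 FPKM of Irf7, and without replicate 3 the difference was 2.25 (SE 0.45) and still passed. Irf9, part of the complex that binds ISRE elements, went from 33.1 to 67.7 FPKM with LPS and 23.2 FPKM with LPS + Dex. Jak2 rose by 3.93 with LPS (SE 0.24) and stayed above vehicle with LPS + Dex (2.47, SE 0.21).

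The remaining IRFs moved less or fell. Irf1 had WT means of 65.2 FPKM with vehicle and 92.6 FPKM with LPS, which did not pass (0.49, SE 0.22), and fell to 35.1 FPKM with LPS + Dex (-1.43, SE 0.22, compared with LPS). Irf8, which defines the macrophage lineage, fell from 253 to 156 FPKM with LPS (-0.74, SE 0.18) and was 88.7 FPKM with LPS + Dex. Irf2, a competitor of Irf1, was raised by Dex alone, from 32.2 to 71.2 FPKM (1.12, SE 0.15). Irf5 was 191 FPKM with vehicle, 183 FPKM with LPS and 91.8 FPKM with LPS + Dex. Irf3 had group means of 30.3 to 41.3 FPKM in WT and did not pass with LPS (-0.25, SE 0.20), DAMPs, Dex or LPS + Dex.

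**Figure D5:**
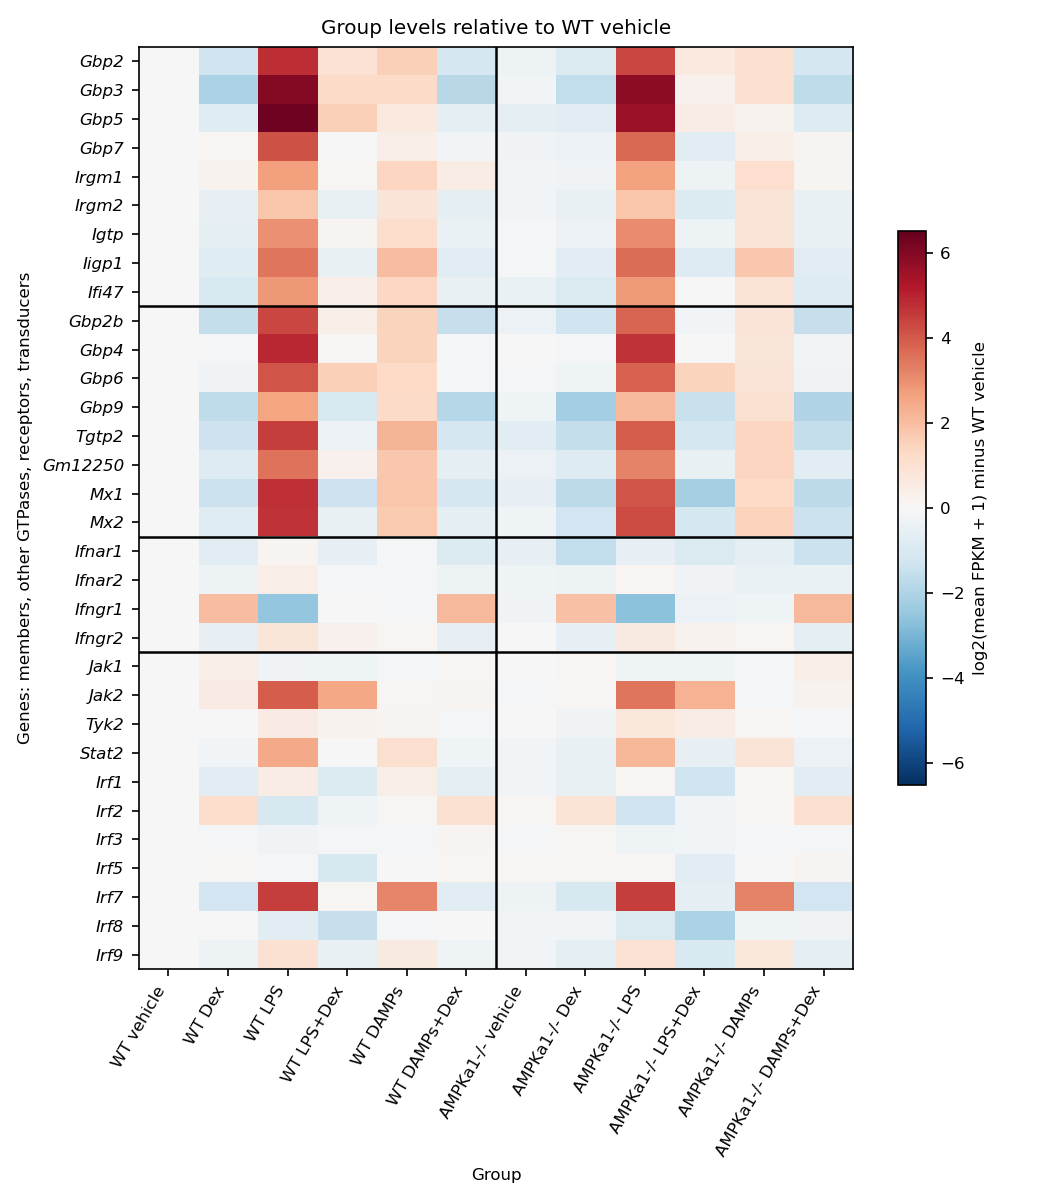
Group level relative to WT vehicle, as log2(mean FPKM + 1) minus the WT vehicle value (colour scale), for the 9 members tested, 8 other interferon-inducible GTPases, 4 interferon receptor chains and 11 transducers (rows, separated by lines) in the 12 groups (columns). Members and other GTPases are red in the LPS columns and pale with LPS + Dex (Gbp5 and Gbp6 light red, Mx1 light blue), while Ifngr1 is blue with LPS and red with Dex.

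Most other interferon-stimulated genes moved in the same directions as the members. Of 20, 19 were tested, and Cxcl9 and Nos2 passed the filter only through the LPS libraries. Of the other 17, 16 rose and 1 fell with LPS in WT, and 16 fell with LPS + Dex compared with LPS. All 11354 genes tested gave 2258 higher and 4068 lower calls with LPS, and 1984 lower calls with LPS + Dex compared with LPS. Cxcl10 (8.81, SE 0.41) and Ifit1 (5.73, SE 0.45) were among those that rose. The class II transactivator Ciita, an interferon gamma target, was the one that fell, from 6.18 FPKM with vehicle to 0.203 FPKM with LPS. With Dex alone, 13 of the 19 (Cxcl9 and Nos2 included) fell and none rose in WT. Over all 11354 genes tested, 1696 were called lower and 1810 higher with Dex. With DAMPs, 9 of the same 19 rose, and 2 without WT DAMPs replicate 3. The higher calls over all genes were 138 of 11354, and 18 of 11363 without that library.

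Several genes listed as inhibitors of interferon signalling rose with LPS as well. Inhibition was not measured here, and Isg15 on this list is itself an interferon-stimulated gene. Of the 8 genes on the list, 5 rose and 2 fell in WT, led by Socs3 (7.44, SE 0.46), Isg15 (6.92, SE 0.53) and Socs1 (6.90, SE 0.25). Over all 11354 genes tested, 2258 were called higher and 4068 lower with LPS. Socs1 had WT means of 0.193 FPKM with vehicle, 142 FPKM with LPS and 22.9 FPKM with LPS + Dex. With LPS + Dex, 5 of the 8 were higher than vehicle, compared with 1952 of all 11354 genes tested. Of these 5, 3 (Isg15, Socs1 and Socs3) were also higher with LPS alone.

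On the route from TLR4 to interferon beta, of 8 genes, 5 rose and 1 fell with LPS in WT, led by Cd14 (2.91, SE 0.27) and Ikbke (1.93, SE 0.17), with Ly96 lower (-0.72, SE 0.14). With LPS + Dex compared with LPS, 4 fell and none rose. These counts, and those of the next list, stand beside 19.9% of all genes tested called higher and 35.8% lower with LPS, and 17.5% lower and 16.6% higher with LPS + Dex compared with LPS. Ikbke was 229 FPKM with LPS and 255 FPKM with LPS + Dex as WT means. The partners that act with GTPases at vacuoles are autophagy and inflammasome genes. Of 18, 7 rose and 7 fell with LPS in WT (median 0.13). The 3 largest differences were those of Nlrp3 (2.41, SE 0.21), the ubiquitin ligase Trim21 (1.94, SE 0.21) and the autophagy gene Gabarapl1 (-1.77, SE 0.16). With LPS + Dex compared with LPS, 8 of these fell and 3 rose.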

How the data were processed

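RNA was extracted with TRIzol, and libraries were made and sequenced by Novogene. The deposited files hold 1 column of FPKM per library, computed by the authors. Per the submitters' processing notes, the tools named are Bowtie2 2.2.3, TopHat2 2.0.12, HTSeq 0.6.1 and DESeq2, with builds GRCm38 and mm10. For the annotation release, counting mode and strand setting, no statement was found (not given in the sources used here). Fragments were read from the steps between low FPKM values (55.3% to 63.9% of values under 10 fragments were whole within 0.001), too few for a count test.

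Symbols came from GENCODE M21 (46574 of 47069 identifiers matched). Genes with a mean of at least 1 FPKM over the 35 libraries were kept (11354). limma 3.58.1 (R 4.3.3), with a trended prior, was fitted to log2(FPKM + 1) over the 12 groups in 1 model. P-values were adjusted over all genes tested, for each of 31 comparisons, of which 4 against Dex alone were added after the data were seen. A simulation for LPS against vehicle in WT (11354 genes) shifted 200 genes with a mean log2(FPKM + 1) above 2. Of genes changed by 1 on the log2 scale 82% were recovered, and of genes changed by 2, 98%, with 5.26% false among the calls. Its noise was drawn independently for each library, so these rates need not hold for weaker genes or for the real libraries. Motifs and figures used Python 3.11.15, pandas 2.3.3, numpy 2.4.6 and matplotlib 3.10.9. Promoter sequences are from RefSeq.

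The named genes were all 10 members, Prkaa1, Tsc22d3, Tnf, Il6 and Saa3 as checks, up to 3 genes of each other list with the largest difference for LPS against vehicle in WT, every interferon, interferon receptor, STAT and IRF of those lists (1 of which is not reported here), and the 5 genes most like the members' mean. Genes named beside these (9930111J21Rik2, Ciita, Tgtp2, Gbp6, Gm4951, Cxcl9 and single genes of the cell type marker lists, such as Lyz2, S100a8, Camp, Klrk1 and Cd4) were chosen with their values seen. The members and lists were chosen with earlier results of these data known. Alternatives were another pseudocount (0.1), no filter or a mean of at least 5 FPKM, median centring, quantile normalization, only the groups compared, no moderation of variances, a replicate block and leaving out each library. For the lists, counts without WT DAMPs replicate 3 and without genes that pass the filter only through the LPS libraries were added after the data were seen.

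Replicate numbers were checked for pairing by correlating, over genes, how far same-numbered libraries of 2 groups lay from their own group's mean. Every such correlation exceeded 0.1 in 7 of the 25 pairs of groups with 3 shared numbers, and in 2 of the 5 pairs with 2 shared numbers. Among the 7 were AMPKa1-/- LPS with vehicle, LPS + Dex with LPS, LPS + Dex with vehicle and Dex with vehicle. The labels do not say what a number marks.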

Additional observations from a re-analysis of the deposited data

How the results depend on the processing

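The counts of members that rose with LPS or fell with LPS + Dex compared with LPS stayed at 9 of 9, except for 8 of the 8 that pass a mean of at least 5 FPKM and, in WT, 10 of 10 without a filter. The DAMPs results moved most. For DAMPs against vehicle in WT the count of 5 became 2 without a filter, 3 with median centring, 2 without moderation of variances, 0 with only the groups compared, and 0 to 7 with 1 library left out. For Dex against vehicle in WT the count of 3 became 6 with a pseudocount of 0.1, 5 with median centring, 6 with only the groups compared, and 2 to 3 with 1 library left out. With 1 library left out, the counts ran from 1 to 3 for LPS + Dex against vehicle in WT, from 3 to 6 for DAMPs against vehicle in the libraries labelled AMPKa1-/- (7 with all libraries), and from 0 to 1 between genotypes with LPS + Dex. Between genotypes with Dex alone, only the groups compared gave 1. The causes were not tested. With the replicate block the count for Dex against vehicle in WT was 4 in place of 3, and no other count moved by over 1.5 times. Over the single members that passed, 1654 of the repeated values kept direction and call, 72 kept direction and did not pass, and 0 changed direction. Depth limits Tgtp1 and the lowest Iigp1 values (such as 0.0208 FPKM with DAMPs + Dex), which lie near that of a few fragments.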
